A study of Mus musculus with 2 samples.

Results

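The miR-99/100 and miR-125 families are described here in hippocampus by the 6 genes Mir99a, Mir99b, Mir100, Mir125a, Mir125b-1 and Mir125b-2, found by matching Ensembl identifiers to GENCODE M21. They are 6 of the 2202 miRNA genes in each deposited count table. Short RNA (a size range below 30, with no unit given) was sequenced from hippocampus, labelled as a layer of unstated name, of females at an age of 25 days. Their strain, B6CASTF1/J, is a hybrid of C57BL/6J with CAST/EiJ. There are 2 libraries, biological replicates 1 and 2 of a single group with no treatment or genotype change named. The labels give them different biosample entries but the same donor entry, so whether they come from separate animals is not stated.

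Each of the 3 clusters carries a miR-99/100 hairpin, a let-7 hairpin and a miR-125 hairpin in that order, an arrangement that was copied during vertebrate evolution. miR-125 is the mammalian relative of lin-4, which with let-7 was found as a timer of larval development in the worm Caenorhabditis elegans, and both let-7 and miR-125 repress the stem cell factor Lin28. In hippocampal neurons miR-125b is known to repress the NMDA receptor subunit Grin2a and to narrow dendritic spines, and miR-125a to repress the postsynaptic scaffold Dlg4 (PSD-95). miR-99 and miR-100 are known repressors of the growth kinase Mtor and the receptor Igf1r.

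A miRNA pairs with its targets mainly through its seed, bases 2 to 8 from the 5′ end. RefSeq entries on GRCm38.p6 were found for all 6 genes. Their 5p sequences, shown with the seed in capitals because it defines the families and because the bases after it decide which reads can be told apart, are:
miR-99a-5p: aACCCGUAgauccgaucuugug
miR-100-5p: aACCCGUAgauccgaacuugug
miR-99b-5p: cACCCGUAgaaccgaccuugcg
miR-125a-5p: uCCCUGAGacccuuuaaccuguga
miR-125b-5p (Mir125b-1 and Mir125b-2): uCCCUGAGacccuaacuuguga

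The 6 genes thus gave 5 different 5p sequences with 2 seeds. miR-99a-5p and miR-100-5p differ by 1 substitution, U16A, counted from 1 at the 5′ end of miR-99a-5p. miR-99b-5p differs from miR-99a-5p by 4, which are A1C, U11A, U16C and U21C. miR-125a-5p shares its first 13 bases with miR-125b-5p. The seed ACCCGUA occurred in 3 of the 1058 genes with a mature sequence in the RefSeq table, all of them members. The seed CCCUGAG occurred in 6, of which Mir351, Mir6367 and Mir6394 are not members. miR-351-5p and miR-6394 part from miR-125 directly after the seed, while miR-6367 keeps the first 13 bases that miR-125a-5p and miR-125b-5p share. Their mature sequences, again with the seed in capitals, are:
miR-351-5p: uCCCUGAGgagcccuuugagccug
miR-6367: uCCCUGAGacccugguucagga
miR-6394: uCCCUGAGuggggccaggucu

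Mir125b-1 and Mir125b-2 give the same 5p molecule, and a read with more than 1 match in the genome is counted for neither gene. Mir125b-1 is at chr9:41581926-41582002 and Mir125b-2 at chr16:77646273-77646343 (GRCm38, plus strand). A read inside the 5p sequence matches both loci. A read on the 3p arm can match 1 locus, since the 3p sequences differ at 5 of 22 positions. The counts of Mir125b-1 and Mir125b-2 therefore leave out the reads common to both and are no measure of total miR-125b. For the other 4 members the longest stretch shared with a miRNA gene elsewhere was 11 to 16 bases, below the 22 taken here as a shared copy. Of the 433 detected genes, 69 (15.9%) have such a copy.

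The libraries held 5481053 and 4266963 counts in miRNA genes (replicates 1 and 2), 35.4% and 31.2% of all reads, with 41.9% and 46.4% of reads matching several places. Levels are counts per 1000000 counts in miRNA genes (CPM), not divided by length, because a read covers a mature RNA of 21 to 24 bases here and not the hairpin of 65 to 80. A gene was called detected at a CPM of at least 2 in both libraries, and all 6 members were. Every member read lay on the main strand, with 0 counts on the opposite strand in both libraries. Of the 12 neuronal marker genes listed for a check of the tissue, 9 were detected. Mir124a, the classic neuronal miRNA with identical copies at several loci, was nearly empty in this count, with 18 counts of Mir124a-1 in replicate 1 and 20 in replicate 2.

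The 6 genes were an abundant group, with 449612 counts in replicate 1 and 298435 in replicate 2. They made up 8.20% of miRNA gene counts in replicate 1 (exact 95% interval 8.18 to 8.23) and 6.99% in replicate 2 (6.97 to 7.02), or 7.60% ± 0.855 (SD, n = 2). The miR-99/100 genes took 6.07% in replicate 1 and 4.55% in replicate 2. The miR-125 genes took 2.14% and 2.44%. The miR-99/100 share was thus the larger in both libraries, although the miR-125 share lacks the reads common to the miR-125b copies. These and the other intervals cover counting error only.

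Mir99a, a hairpin for the mTOR pathway repressor miR-99a, was the highest member, at 33006 CPM in replicate 1 and 30274 CPM in replicate 2. Its mean of 31640 ± 1932 CPM (SD, n = 2) ranked 7 among the 433 detected genes. By library totals the libraries were close, with a ratio of replicate 1 over replicate 2 of 1.09 (exact 95% interval 1.08 to 1.10). Mir100, whose 5p product differs from miR-99a-5p at a single base, was at 5466 CPM in replicate 1 and 5890 CPM in replicate 2. The mean was 5678 ± 300.3 CPM (rank 36) and the ratio 0.928 (0.912 to 0.944). Mir99a stood 6.04 times above Mir100 in replicate 1 (5.97 to 6.11) and 5.14 times in replicate 2 (5.07 to 5.21).

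Mir99b was the family member that differed between the samples. It reached 22191 CPM in replicate 1 and 9382 CPM in replicate 2, a ratio of 2.37 (2.34 to 2.39), with a mean of 15786 ± 9058 CPM. It ranked 9 in replicate 1 and 25 in replicate 2. Within the family Mir99a took 54.4% of counts in replicate 1 and 66.5% in replicate 2, Mir99b 36.6% and 20.6%, and Mir100 9.01% and 12.9%. The order Mir99a, Mir99b, Mir100 was the same in both libraries.

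Among the miR-125 genes Mir125a, the source of miR-125a, was steady by library totals, at 19548 CPM in replicate 1 and 18000 CPM in replicate 2. Its mean was 18774 ± 1094 CPM (rank 11) and its ratio 1.09 (1.08 to 1.10). Mir125b-1 was at 1321 CPM in replicate 1 and 5700 CPM in replicate 2, 4.32-fold lower in replicate 1 (4.20 to 4.43), with a mean of 3511 ± 3097 CPM. This was the widest gap of the 6 genes, with a rank of 94 in replicate 1 and 39 in replicate 2.

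Mir125b-2, the other copy, was the lowest member, at 498 CPM in replicate 1 and 694 CPM in replicate 2 (mean 596 ± 139, rank 136). Its ratio was 0.718 (0.681 to 0.756). Mir125b-1 was 2.65 times Mir125b-2 in replicate 1 (2.54 to 2.77) and 8.21 times in replicate 2 (7.90 to 8.53). The ratio of the copies differed between the samples by more than counting error. It is a ratio of the reads that match a single place, and the reads the copies share were not analysed here.

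**Figure D1:**
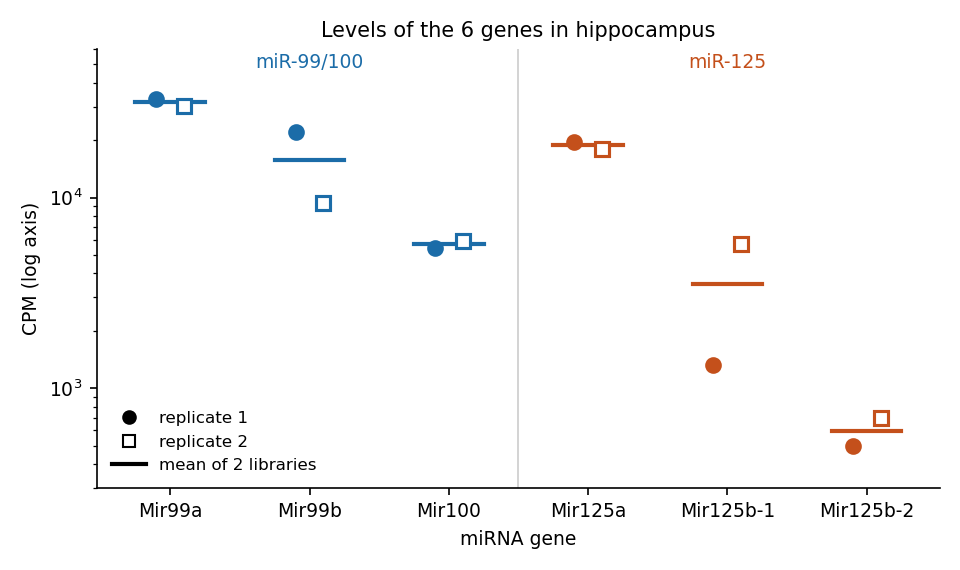
Level of each gene in CPM (log axis), with filled circles for replicate 1, open squares for replicate 2 and a bar for their mean. The symbols lie close together for Mir99a, Mir100 and Mir125a and far apart for Mir99b (22191 and 9382 CPM) and Mir125b-1 (1321 and 5700 CPM).

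By mean level the order was Mir99a, Mir125a, Mir99b, Mir100, Mir125b-1, Mir125b-2. Mir99a lay above Mir125a in both libraries without overlap, as did Mir99b above Mir100 and Mir125b-1 above Mir125b-2. Mir125a and Mir99b overlapped, as did Mir100 and Mir125b-1, so the ranges across libraries do not separate these neighbours. Inside the libraries Mir100 over Mir125b-1 was 4.14 in replicate 1 and 1.03 in replicate 2. Mir99b over Mir125a turned, at 1.14 in replicate 1 and 0.521 in replicate 2. With 2 libraries of 1 group no test of these differences was made.

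At least a 1.5-fold difference between the libraries was seen in 2 of the 6 members (33.3%), Mir99b higher and Mir125b-1 lower in replicate 1. Over all 433 detected genes 63% passed the same limit, 102 higher in replicate 1 (23.6%) and 171 lower (39.5%). Whether the share in the members differs from that in all detected genes was not tested. The median log2 ratio of detected genes was -0.27 with library totals, and scaling by TMM or DESeq2 size factors shifted it by 0.29 or 0.27. Under those scalings the same members passed, beside 62.3% (TMM) and 62.7% (DESeq2) of all detected genes. Mir99b was 2.91-fold (TMM) and 2.86-fold (DESeq2) higher in replicate 1 and Mir125b-1 3.51-fold and 3.57-fold lower. Mir100 turned, with a log2 ratio of -0.11 by library totals, 0.19 by TMM and 0.17 by DESeq2 size factors, so it has no firm direction. The log2 ratio of Mir125b-2 stayed below 0, at -0.48, -0.18 and -0.20 under the same 3 scalings. Mir99a and Mir125a, each at a ratio of 1.09 by library totals, were further apart under the other scalings. Mir99a was 1.34-fold (TMM) and 1.32-fold (DESeq2) higher in replicate 1, and Mir125a 1.34-fold and 1.31-fold.

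**Figure D2:**
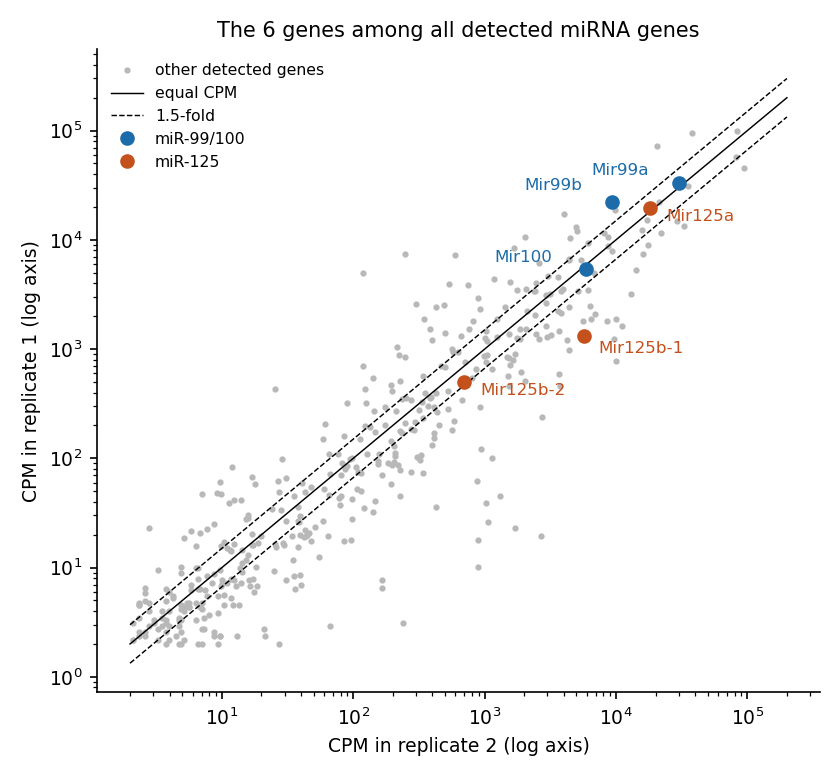
CPM in replicate 1 against CPM in replicate 2 (log axes) for all 433 detected genes, with the miR-99/100 genes in blue and the miR-125 genes in orange. Between the dashed 1.5-fold lines lie 4 of the 6 genes, while Mir99b lies above them and Mir125b-1 below.

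**Figure D3:**
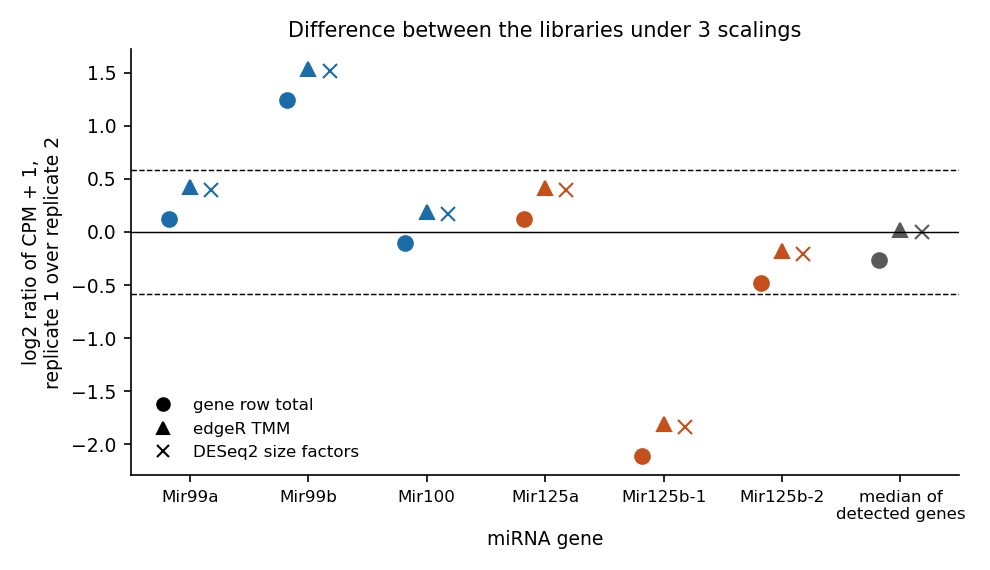
Log2 ratio of CPM + 1, replicate 1 over replicate 2, for each gene and for the median of detected genes, under library totals, TMM and DESeq2 size factors. Dashed lines mark 1.5-fold, which Mir99b and Mir125b-1 pass under all 3 scalings, and Mir100 crosses the line of no difference.

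Marker genes of other cell types also differed between these samples, and their part in the Mir99b and Mir125b-1 differences was not tested. The counts below stand beside 63% of all detected genes past 1.5-fold, 23.6% higher in replicate 1 and 39.5% lower. The median log2 ratio of all detected genes was -0.27. Whether any list differs from all detected genes was not tested. The neuronal list summed to 45756 CPM in replicate 1 and 50045 CPM in replicate 2, but its 9 detected genes were split, with 3 at least 1.5-fold higher in replicate 1, 5 lower and a median log2 ratio of -0.91. Mir132 was at 17142 CPM in replicate 1 and 4038 CPM in replicate 2, and Mir137 at 5321 and 14089 CPM. The oligodendrocyte list (3 of 4 detected) summed to 6503 CPM in replicate 1 and 939 in replicate 2, but it was split. At least 1.5-fold higher in replicate 1 were 2 of its detected genes and 1 was lower, Mir219a-1 at 12.4 and 54.8 CPM. Mir219b had 1 count in replicate 1 and 0 in replicate 2. The endothelial and mural list (3 of 4) was at 21958 and 12895 CPM, with Mir126b at 0 in both. Only 1 of its detected genes passed 1.5-fold, Mir126a at 18708 and 9834 CPM, and 2 did not. The immune list (5 of 6) was at 1990 and 1101 CPM, a sum led by Mir150 (1215 CPM in replicate 1, 397 CPM in replicate 2). Of its other detected genes 3 were at least 1.5-fold lower in replicate 1, and the list's median log2 ratio was -1.05. The choroid plexus and ciliated list (4 of 7) was at 984 and 2305 CPM, with Mir449b at 0 in replicate 1. Here too only 1 detected gene passed 1.5-fold, lower in replicate 1, and 3 did not. Of these lists the epithelial and sensory one (6 of 8) differed most, at 101 CPM in replicate 1 and 7663 in replicate 2. The erythroid list (3 of 3) was at 88.1 and 65.9 CPM, with 2 genes at least 1.5-fold higher in replicate 1 and 1 lower. In bulk tissue fewer cells of a type and less RNA per cell cannot be told apart.

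The cluster on chromosome 17 was the compact one, with 3 hairpins inside 692 bp of the protein-coding gene Spaca6 on the same strand. Mir99b (ENSMUSG00000065396.1, chr17:17830188-17830257) lies in an intron. Mir125a (ENSMUSG00000065479.2, chr17:17830812-17830879) overlaps a noncoding exon by 47 of its 68 bases. Between them is Mirlet7e (ENSMUSG00000105758.1, chr17:17830352-17830444), a let-7 hairpin that shares at most 17 bases with a miRNA gene elsewhere. The members of this cluster held 4.17% of counts in replicate 1 and 2.74% in replicate 2.

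Mirlet7e was at 22292 CPM in replicate 1 and 21124 CPM in replicate 2. Mir125a kept nearly the same proportion to it, 0.877 in replicate 1 (0.870 to 0.884) and 0.852 in replicate 2 (0.844 to 0.860). Mir99b did not differ from it beyond counting error in replicate 1, with a ratio of 0.995 (0.988 to 1.003), and stood at 0.444 of it in replicate 2 (0.439 to 0.449). Mir99b over Mir125a was 1.14 in replicate 1 (1.13 to 1.14) and 0.521 in replicate 2 (0.515 to 0.528). Of the 3 neighbours it was thus Mir99b that shifted against the others, and these ratios inside a library do not depend on scaling.

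The cluster on chromosome 16 spans 47408 bp in introns of the noncoding host gene Mir99ahg. Mir99a (ENSMUSG00000065530.1, chr16:77598936-77599000) starts 721 bp before Mirlet7c-1, and Mir125b-2 (ENSMUSG00000065472.1) lies near the far end, its last 4 bases overlapping the entry C130023A14Rik. Mir99a and Mirlet7c-1 also lie across an intron of Gm11146 on the other strand. Mir99a held 96.6% of the cluster's counts in replicate 1 and 94.3% in replicate 2. Mirlet7c-1 was at 655 CPM in replicate 1 and 1130 CPM in replicate 2. Mir99a stood 66.2 times above Mir125b-2 in replicate 1 (63.8 to 68.8) and 43.6 times in replicate 2 (42.04 to 45.2). Both Mirlet7c-1, which shares 23 bases with Mirlet7c-2, and Mir125b-2 lack the reads of their copies, so the gap to Mir99a is an upper value.

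The cluster on chromosome 9 spans 50578 bp in introns of 3110039I08Rik and Gm49317, both noncoding. Mir100 (ENSMUSG00000093011.1, chr9:41531425-41531504) also lies within an exon of the antisense lincRNA Gm48742, and Mir125b-1 (ENSMUSG00000093354.1) within the sense intronic gene Gm28119. Mir100 took 79.3% of the cluster's counts in replicate 1 and 49.9% in replicate 2, and Mir125b-1 19.2% and 48.3%. Mir100 was 4.14 times Mir125b-1 in replicate 1 (4.03 to 4.25), but the 2 were nearly equal in replicate 2, at a ratio of 1.03 (1.02 to 1.05). Mirlet7a-2, which shares 23 bases with Mirlet7a-1, was at 105 CPM in replicate 1 and 207 CPM in replicate 2. Both Mirlet7a-2 and Mir125b-1, which shares 24 bases with Mir125b-2, lack the reads of their copies. The share of Mir100 and its ratio to Mir125b-1 are therefore upper values.

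**Figure D4:**
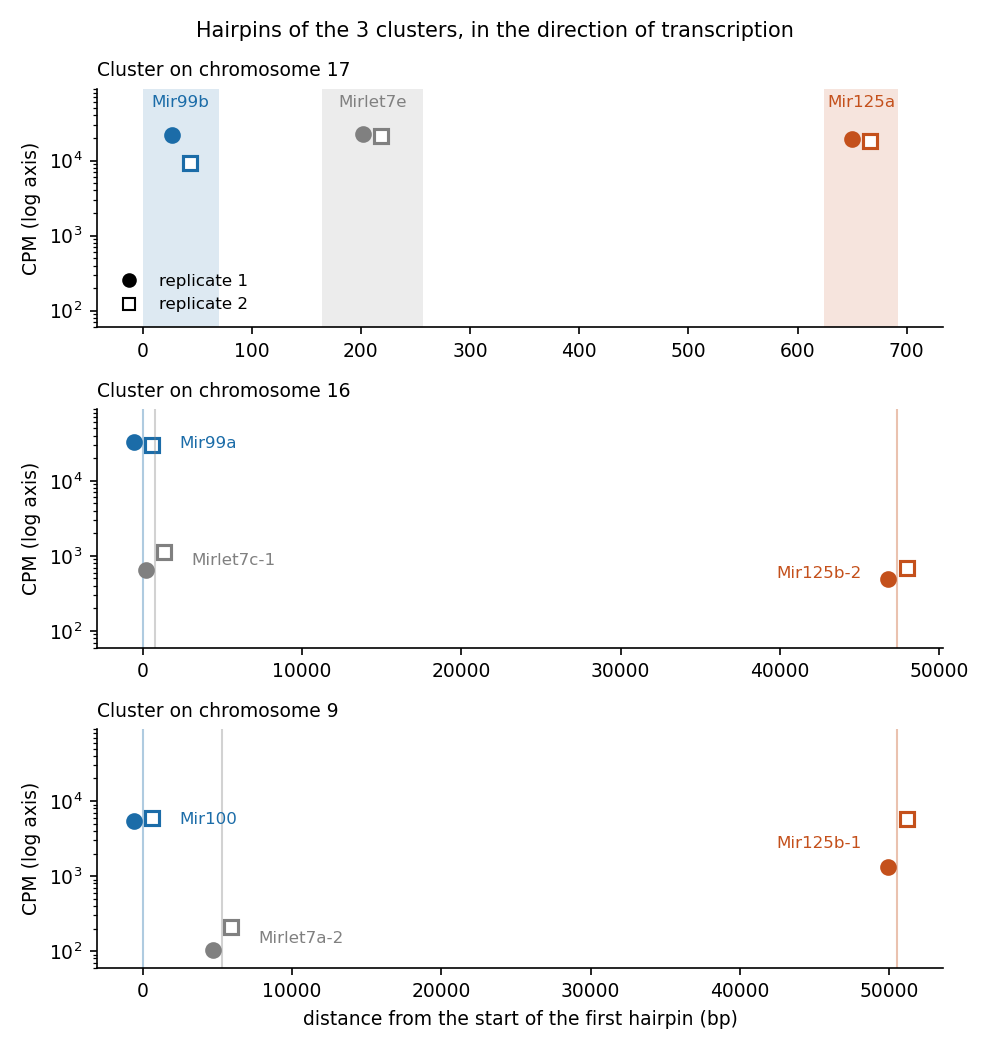
CPM (log axis) of each hairpin against its distance in bp from the start of the first hairpin of its cluster, with filled circles for replicate 1 and open squares for replicate 2, set slightly apart for clarity. Shading or a vertical line marks each hairpin, blue for miR-99/100, grey for let-7 and orange for miR-125. The chromosome 17 hairpins are all at 9382 CPM or higher, while Mir125b-2 and the copied let-7 hairpins lie far below Mir99a and Mir100.

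All 12 genes of the let-7 family, the cluster partners, were detected. None was at least 1.5-fold higher in replicate 1 and 6 of 12 were lower, beside 23.6% higher and 39.5% lower over all detected genes. The median log2 ratio was -0.65, beside -0.27 for all detected genes. By TMM 4 were lower, with a median of -0.35 beside 0.02 for all detected genes. By DESeq2 size factors 5 were lower, with a median of -0.38 beside 0. Over all detected genes 62.3% (TMM) and 62.7% (DESeq2) passed 1.5-fold in either direction. Mirlet7b, the highest let-7 gene by mean, had a ratio of 1.19 by library totals. Mirlet7a-1, Mirlet7a-2, Mirlet7c-1 and Mirlet7c-2, all among the 6 lower by library totals, lack the reads common to their copies. The rest of the 6 were Mirlet7i, with the lowest ratio of the family (0.486), and Mirlet7d (0.513). The numbered pair Mirlet7f-1 (0.862) and Mirlet7f-2 (0.897) did not pass 1.5-fold. Mir351, a hairpin with the miR-125 seed at chrX:53053255-53053353, was at 764 CPM in replicate 1 and 709 CPM in replicate 2. Mir125a was 25.6 times Mir351 in replicate 1 (24.8 to 26.4) and 25.4 times in replicate 2 (24.5 to 26.3). Mir6367 and Mir6394 had 0 counts in both libraries, which allows up to 0.547 CPM in replicate 1 and 0.703 CPM in replicate 2.

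The Hox cluster hairpins Mir10a and Mir10b give the nearest relatives of miR-99/100. Their 5p sequences are printed to show the seed ACCCUGU, in capitals, in place of ACCCGUA:
miR-10a-5p: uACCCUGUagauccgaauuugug
miR-10b-5p: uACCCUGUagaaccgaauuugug
Both were scarce. Mir10a was at 7.30 CPM in replicate 1 and 8.44 CPM in replicate 2. Mir10b was at 6.93 and 39.8 CPM, 5.75-fold lower in replicate 1 (4.02 to 8.40) on 38 and 170 counts. The lowest member, Mir125b-2, thus stood above either in both libraries.

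Genes closest to each member over log2(CPM + 1) of the 2 libraries were sought among 212 other detected genes with a mean of at least 100 CPM. With 2 points per gene this describes level and difference only. Mir99b was closest to Mir23b (21824 CPM in replicate 1, 9122 in replicate 2, distance 0.047) and Mir126a (18708 and 9834, distance 0.26). Mir100 was closest to Mir26b (5220 and 5837, distance 0.068) and Mir342. Mir125a was closest to its neighbour Mirlet7e (distance 0.30) and Mir487b. Mir99a was closest to Mir744 (30880 and 35575, distance 0.25) and Mirlet7e, Mir125b-2 to Mir700 and Mir300. Mir125b-1 was closest to Mir1983 (1216 and 4265, distance 0.43) and Mir181b-2 (1825 and 5657).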

How the data were processed

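Each of the 2 libraries has a deposited table of raw counts by miRNA gene, on mm10 with GENCODE M21 per the deposited text beside each table. Aligner, trimming and counter: not given in the sources used here. Of the 3 value columns, column 3, with the larger of the single-strand totals, was used and column 2 was read as the count without strand. The 4 rows that name no gene stayed out of library sizes. Reads matching several places made up 41.9% and 46.4% of replicates 1 and 2.

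CPM, ratios with exact 95% intervals from the counts, and Clopper-Pearson intervals for shares were computed in Python 3.11.15 with scipy 1.17.1, after a check on simulated counts. Log2 ratios use CPM + 1. A count of 0 allows 3 counts. Alternative scalings were TMM (edgeR 4.0.16) and DESeq2 1.42.0 size factors, from detected genes. With 1 group no test was run. Allele differences were not analysed.

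Named genes are the members, the let-7 hairpins of their clusters, genes sharing a member's seed, Mir10a and Mir10b, host genes, and the 2 nearest genes in pattern per member. Members and lists were chosen with earlier results of these data known.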

Additional observations from a re-analysis of the deposited data

Results flagged for a closer look

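The opposite-strand column, which no comparison above uses, holds 122182 counts in replicate 1 and 90136 in replicate 2 for Gm25927, a miRNA gene annotated across Mirlet7e on the other strand of the chromosome 17 cluster. These equal the Mirlet7e counts on the main strand in both libraries, and the count without strand lists 0 for both genes. Gm25927 is on the minus strand, so its opposite-strand column and the main column of Mirlet7e count the same strand. The values were marked by a rule for counts in the opposite-strand column and are not a signal separate from Mirlet7e.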

How the results depend on the processing

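Reads that match several places were added to the total. The share of the 6 genes was then 3.29%, that of miR-99/100 2.31% and that of miR-125 0.980%. Against gene counts alone the means were 7.60%, 5.31% and 2.29%. The total is larger by construction, and the reads common to the miR-125b copies enter it but no member's count. The shares of miR-125 and of the 6 genes are therefore lower values here. Without 1 replicate each, the shares ranged from 6.99% to 8.20%, from 4.55% to 6.07% and from 2.14% to 2.44%. Members past 1.5-fold numbered 2 under TMM, DESeq2 size factors, the count without strand and no filter. Over all genes considered 62.3%, 62.7%, 63.2% and 69.0% passed under the same settings, in that order. Removing the filter could not change the count of members, all of which lie above it. The count without strand left the members' counts as they were and changed only the library totals. Detected genes past 1.5-fold numbered 273, against 449 of 651 with no filter and 148 of 218 at a mean of at least 100 CPM, where more or fewer genes were considered (69.0% and 67.9%). With both replicates kept, 3 of 18 alternative levels of single members moved by more than the SD, all with the count without strand. From 1 replicate alone, Mir125b-1 was at 1321 or 5700 CPM and Mir99b at 22191 or 9382 CPM. Of 24 alternative log2 ratios between the libraries, 16 moved by more than counting error, none of a gene past 1.5-fold changing sign. A difference between libraries has no value without either replicate. The count without strand gave no ratio to Mirlet7e, which it lists at 0. No paired analysis was possible because the labels give 1 group.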
